A study of Rattus norvegicus with 12 samples.

Results

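The 4 circular RNAs (circRNAs) described here come from 3 genes of vesicle trafficking and were measured in the rat orbitofrontal cortex (OFC): rno_circRNA_001183 and rno_circRNA_001190 from Exoc6, rno_circRNA_012617 from Eps15 and rno_circRNA_004183 from Dennd1b. They are 4 of the 14145 circRNA probes on the array. They were taken from the study's supplementary list of circRNAs that differed between heroin and saline, by a fold above 1.5 and an unadjusted p below 0.05, and were matched to the array by probe name. The heroin against saline values below are therefore a description of how the circRNAs were chosen, and no test is given for them.

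The animals were adult male Sprague Dawley rats, 1 rat per array and 3 rats per group. The heroin and saline groups had an intravenous catheter and self-administered heroin or saline in 6 h sessions on 10 days. The sucrose group had no surgery and earned chocolate sucrose pellets in 2 h sessions on 10 days. The naive group had no surgery and was placed in the chambers with nothing to earn, for a daily time that the paper does not give. OFC tissue was taken right after the last session, and RNase R, which digests linear RNA and leaves circles intact, was applied to the total RNA before Cy3 labelling.

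A circRNA forms when the end of an exon is spliced back to the start of an upstream one, so its junction is a sequence that the linear mRNA lacks, and probes of this array are directed at such junctions. Vesicle trafficking moves receptors and transmitter-containing cargo to and from the neuronal surface. Exoc6 encodes a subunit of the exocyst, the complex that tethers secretory vesicles to the plasma membrane before they fuse. Eps15 encodes an endocytic adaptor of clathrin-coated pits. Dennd1b encodes an exchange factor that activates Rab GTPases on endocytic membranes. The array measured the circles and not the linear mRNAs or proteins of these genes.

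The probes that stand for the 4 circRNAs are shown because every value below was read from them. Each is 60 bases long and is printed in lower case throughout, since the junction's place within it is not marked in the sources used here.
Exoc6 rno_circRNA_001183: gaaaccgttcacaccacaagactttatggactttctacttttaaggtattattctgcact
Exoc6 rno_circRNA_001190: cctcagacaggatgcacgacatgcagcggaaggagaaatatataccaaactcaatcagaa
Eps15 rno_circRNA_012617: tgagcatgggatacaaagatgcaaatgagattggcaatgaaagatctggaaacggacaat
Dennd1b rno_circRNA_004183: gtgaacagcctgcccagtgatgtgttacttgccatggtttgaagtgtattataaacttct
No pair of these probes shared a run longer than 7 bases, and the 2 Exoc6 probes shared at most 5. Their GC content was 36.7%, 45.0%, 40.0% and 41.7% in the order printed, against a median of 45.0% over the 75 listed circRNAs used here.

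The backsplice ends of all 4 circRNAs lay on plus strands. The supplementary list placed rno_circRNA_001183 at chr1:263746174-263770560 and rno_circRNA_001190 at chr1:263781860-263819781, so that both were exonic circles of Exoc6 whose spans, 24386 and 37921 bp, did not overlap and were 11300 bp apart. The Eps15 circle at chr5:132839304-132861582 spanned 22278 bp and was classed as sense overlapping, that is, it lies on the gene's own strand and is classed as neither exonic nor intronic. The exonic Dennd1b circle at chr13:61137857-61185140 spanned 47283 bp. All 4 spans were longer than the 14501 bp median of the 75 listed circRNAs. For these positions the genome build is not stated in the sources used here. The span is genomic, and the spliced length of each circle was not measured.

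The list also names 5 miRNAs for each circle by a site prediction, 20 different ones in all, of which 17 had a mature sequence under the same name in RefSeq. The names did not repeat between the 4 circles. Seeds, bases 2 to 8 counted from the 5′ end, were shared by only 1 pair of the 17, both named for the Dennd1b circle and shown here with the seed in capitals.
rno-miR-103-3p: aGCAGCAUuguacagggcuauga
rno-miR-107-3p: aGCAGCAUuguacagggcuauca
No miRNA level was measured on these arrays.

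All 4 probes were well above background on 12 of 12 arrays, and no circRNA spot was saturated. The scanner's own error estimate for their spots was 10.0% to 12.4% of the intensity. Median background-subtracted intensity over all circRNA probes was 85.8 to 109 on the heroin arrays, 88.2 to 136 on the saline arrays, 124 to 141 on the sucrose arrays and 70.1 to 114 on the naive arrays. Values below are log2 intensities after quantile normalization over the 12 arrays, and differences are in log2 units with standard errors from limma. The sample labels used here name no slide, so arrays with the same scan date in the scanner header were counted as the same slide. The row within a slide was read from the header's barcode field. The heroin and saline arrays lay on slide 1 together with sucrose 1 and 2, and the naive arrays lay on slide 2 with sucrose 3. In bulk tissue, fewer cells that carry a circle and less of it per cell cannot be told apart. None of the markers listed for neurons, glia and endothelium, such as Snap25, Gfap, Mbp and Cldn5, was among the 39 linear probes that could be named, so the tissue label was not checked against markers.

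The first Exoc6 circle, rno_circRNA_001183, read 7.52, 7.17 and 7.51 on the heroin arrays and 6.83, 6.69 and 6.08 on the saline arrays. On the sucrose arrays it read 7.35, 7.24 and 7.77, and on the naive arrays 7.27, 7.42 and 7.51. The saline arrays were the low ones, all 3 below the other 9, while heroin, sucrose and naive arrays overlapped. Group means were 7.40 ± 0.20 (SD, n = 3) for heroin, 6.53 ± 0.40 for saline, 7.45 ± 0.28 for sucrose and 7.40 ± 0.12 for naive.

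The second Exoc6 circle, rno_circRNA_001190, read 5.47, 5.66 and 5.88 after heroin and 5.0, 5.02 and 4.13 after saline. Its sucrose values were 5.46, 5.51 and 6.07, and its naive values were 6.12, 5.93 and 6.13. The saline arrays were again below all 9 others, and the naive arrays were above every heroin array. Sucrose 3, the sucrose array on the slide of the naive arrays, lay among the naive values, and sucrose 1 and 2 lay close to the lowest heroin value. Group means were 5.67 ± 0.21 (SD, n = 3), 4.72 ± 0.51, 5.68 ± 0.34 and 6.06 ± 0.11 for heroin, saline, sucrose and naive.

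The Eps15 circle ran the other way between heroin and saline. It read 5.55, 5.33 and 5.88 on the heroin arrays and 6.52, 6.82 and 6.35 on the saline arrays, with 5.95, 6.04 and 6.84 on the sucrose arrays and 5.92, 6.26 and 6.17 on the naive arrays. All 3 heroin arrays were below the other 9, and the saline arrays were above every naive array. Group means were 5.59 ± 0.28 (SD, n = 3) for heroin, 6.56 ± 0.23 for saline, 6.28 ± 0.49 for sucrose and 6.12 ± 0.18 for naive.

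The Dennd1b circle read 11.74, 11.83 and 12.13 after heroin and 12.64, 12.37 and 12.62 after saline. Its sucrose values were 11.67, 12.38 and 11.69, and its naive values were 12.52, 12.53 and 11.32. Heroin lay below saline on every array, while the sucrose and naive groups each held high and low arrays and overlapped both. Naive 3 was the lowest of all 12 arrays, and the naive mean of 12.12 ± 0.69 (SD, n = 3) had the widest spread of any group and circle here. The other means were 11.90 ± 0.20 for heroin, 12.54 ± 0.15 for saline and 11.91 ± 0.40 for sucrose.

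**Figure D1:**
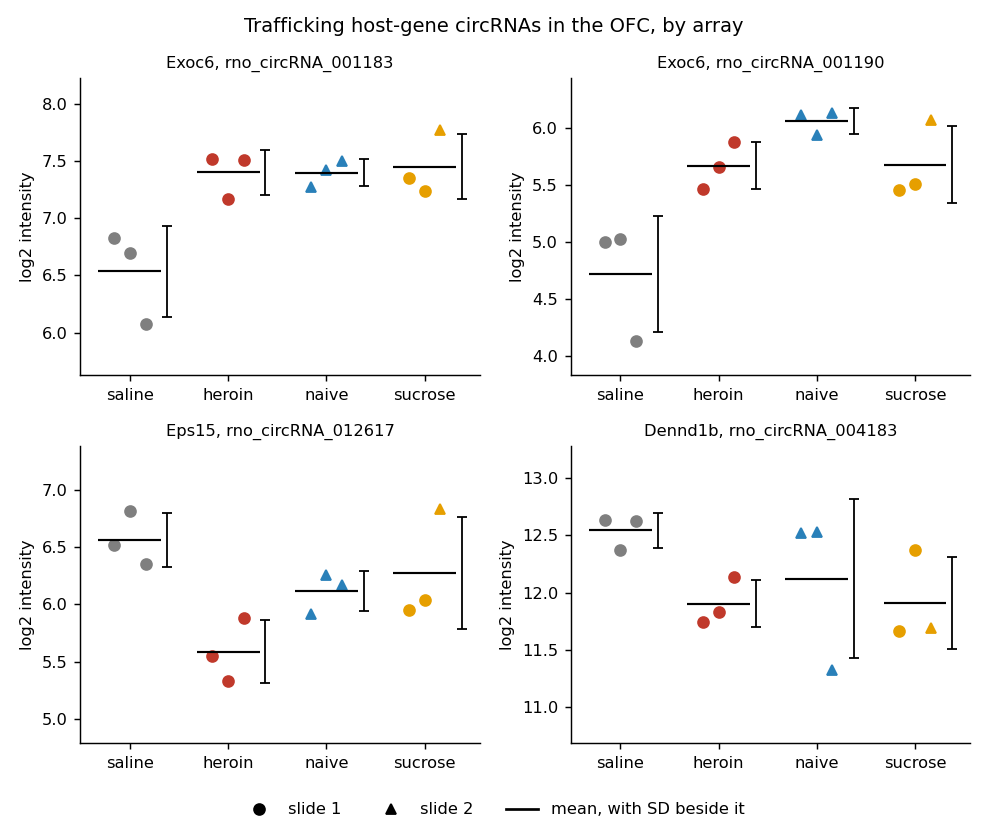
Log2 intensity after quantile normalization (y axis) of each circRNA on the 12 arrays by group (x axis), with circles for slide 1 and triangles for slide 2, a line at the group mean and a bar of 1 SD beside it. Both Exoc6 circles were lowest on the saline arrays, Eps15 was lowest on the heroin arrays, and Dennd1b had 1 low naive array at 11.32.

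Between heroin and saline, the contrast that chose them, the Exoc6 circles were higher and the Eps15 and Dennd1b circles lower after heroin. The heroin minus saline difference was 0.87 ± 0.21 (SE) for rno_circRNA_001183, a 1.83-fold higher mean, and 0.95 ± 0.24 for rno_circRNA_001190, a 1.93-fold higher mean. It was -0.98 ± 0.24 for Eps15, where saline was 1.97-fold higher, and -0.64 ± 0.30 for Dennd1b, where saline was 1.56-fold higher. Heroin and saline arrays did not overlap for 4 of 4 circles, against 14.7% of the 13979 circRNAs tested, and the median difference of all those circRNAs was 0.0053. Since this contrast set the membership, nothing is read from that count.

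In the deposited log2 values, on which the list rests, the folds were smaller for 3 of the 4: 1.63 and 1.60 for the Exoc6 circles, 1.67 for Eps15 and 1.62 for Dennd1b. In those values 76 circRNAs passed the threshold, with the lowest fold inside it at 1.503 and the highest below it at 1.497. Heroin 1 to 3 and saline 1 shared a row of slide 1, and saline 2 and 3 shared the other row with sucrose 1 and 2. With the slide row as a block, a setting added after the values were seen, the differences were 0.57 ± 0.26 for rno_circRNA_001183 and 0.67 ± 0.31 for rno_circRNA_001190. They were -0.94 ± 0.27 for Eps15 and -0.74 ± 0.45 for Dennd1b. Only saline 1 shared the row of the heroin arrays, so these values in effect compare the heroin arrays with that saline rat. Saline 3, the lowest array for both Exoc6 circles, lay in the second row, and without it their differences were 0.64 and 0.66.

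Sucrose against naive asks whether a food reward moved the same circles, and these 6 arrays took no part in choosing them. None of the 4 circles passed the test. The sucrose minus naive difference was 0.05 ± 0.21 for rno_circRNA_001183 (95% interval -0.41 to 0.52, limma adjusted p = 0.938) and -0.38 ± 0.24 for rno_circRNA_001190 (-0.91 to 0.15, limma adjusted p = 0.549). It was 0.16 ± 0.24 for Eps15 (-0.36 to 0.68, limma adjusted p = 0.819) and -0.21 ± 0.30 for Dennd1b (-0.86 to 0.44, limma adjusted p = 0.807). The groups overlapped for all 4 circles, and 13.4% of the 13979 circRNAs had groups that did not. Two-sided exact permutation tests over the 6 arrays gave p = 0.9, 0.2, 0.8 and 0.8 in the same order, where 0.1 is the smallest p that 3 against 3 allow.

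Across all circRNAs, 0 of 13979 (0%) had an adjusted p below 0.05 in limma for sucrose against naive, and 1558 (11.1%) had an unadjusted p below 0.05, none of them among the 4 circles. The methods' t-test on the same values gave 0 after adjustment and 981 before it.

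These sucrose values changed with a slide block and with single arrays left out. Sucrose 1 and 2 lay on slide 1, and all naive arrays lay on slide 2 with sucrose 3. The slide and the rat of sucrose 3 cannot be told apart. Within slide 2, sucrose 3 differed from the naive mean by 0.37 for rno_circRNA_001183, by 0.0037 for rno_circRNA_001190, by 0.72 for Eps15 and by -0.43 for Dennd1b. With slide as a block the estimates were the same as these within-slide values, with 95% intervals of -0.24 to 0.98, -0.69 to 0.70, 0.16 to 1.28 and -1.38 to 0.51 and limma adjusted p = 0.762, 0.999, 0.543 and 0.825. Leaving out sucrose 3 turned the difference of rno_circRNA_001183 to -0.10 and that of Eps15 to -0.12, and leaving out naive 1 put rno_circRNA_001183 at -0.0088. Leaving out naive 3 put Dennd1b at -0.61 (limma adjusted p = 0.245).

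Within slide 1, sucrose 1 and 2 could be set beside the heroin and saline arrays, with no test since those arrays chose the circles. Their mean was above saline by 0.76 for each Exoc6 circle and below saline for Eps15 and Dennd1b, with differences of -0.57 and -0.52. Against heroin it differed by -0.11, -0.18, 0.41 and 0.12 for rno_circRNA_001183, rno_circRNA_001190, Eps15 and Dennd1b. For Dennd1b the mean covers a split, with sucrose 1 at 11.67, below every heroin array, and sucrose 2 at 12.38, inside the saline range. These rats differed from both groups in surgery and session length as well as in the reward, which cannot be told apart.

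Saline against naive gave the difference between the control groups. Saline was lower for both Exoc6 circles, with differences of -0.87 ± 0.21 for rno_circRNA_001183 and -1.34 ± 0.24 for rno_circRNA_001190, and the latter had the largest size of any difference plotted for the 4 circles. That size depended on the processing of a dim probe, with saline intensities of 13.9 to 41.7 before normalization. It was -0.87 in the deposited values. Under normexp background correction it was -0.56, against -0.58 for rno_circRNA_001183. Saline was higher by 0.45 ± 0.24 for Eps15 and by 0.42 ± 0.30 for Dennd1b. The groups did not overlap for 3 of 4 circles, all but Dennd1b, against 26.7% of the 13979 circRNAs. Without naive 3 the Dennd1b difference was 0.02. The saline and naive arrays lay on different slides, and the rats differed in surgery and in self-administration, so slide and group could be separated only through the sucrose arrays: with slide as a block the differences were -0.39 ± 0.35 and -0.76 ± 0.40 for the Exoc6 circles, 1.29 ± 0.33 for Eps15 and 0.088 ± 0.55 for Dennd1b. Of the sucrose arrays only sucrose 3 lay on slide 2, so the block cannot tell its rat from the slide.

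Heroin against naive compared arrays of slide 1 with arrays of slide 2, and its values changed with the treatment of slide. The heroin minus naive difference was 0.0034 ± 0.21 for rno_circRNA_001183, where the groups overlapped, and -0.39 ± 0.24 for rno_circRNA_001190, where every heroin array was below every naive one. It was -0.53 ± 0.24 for Eps15, again without overlap, and -0.22 ± 0.30 for Dennd1b, with overlap. With slide as a block, a setting added for this comparison after the values were seen, the differences were 0.48 ± 0.35 and 0.19 ± 0.40 for the Exoc6 circles, 0.31 ± 0.33 for Eps15 and -0.55 ± 0.55 for Dennd1b, so that rno_circRNA_001190 and Eps15 changed sign. That block rests on sucrose 3 against sucrose 1 and 2, the only group on both slides. Slide and the rat of sucrose 3 cannot be told apart. Without the block, there were 2 of 4 circles without overlap, against 24.8% of the 13979 circRNAs. The position of saline below the 9 other arrays, seen for both Exoc6 circles, occurred for 0.966% of the circRNAs tested, and that of heroin below the 9 others, seen for Eps15, for 0.909%, and both involve arrays that chose the circles. These comparisons share the saline or the naive arrays, so their values stand side by side and are not independent of each other.

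**Figure D2:**
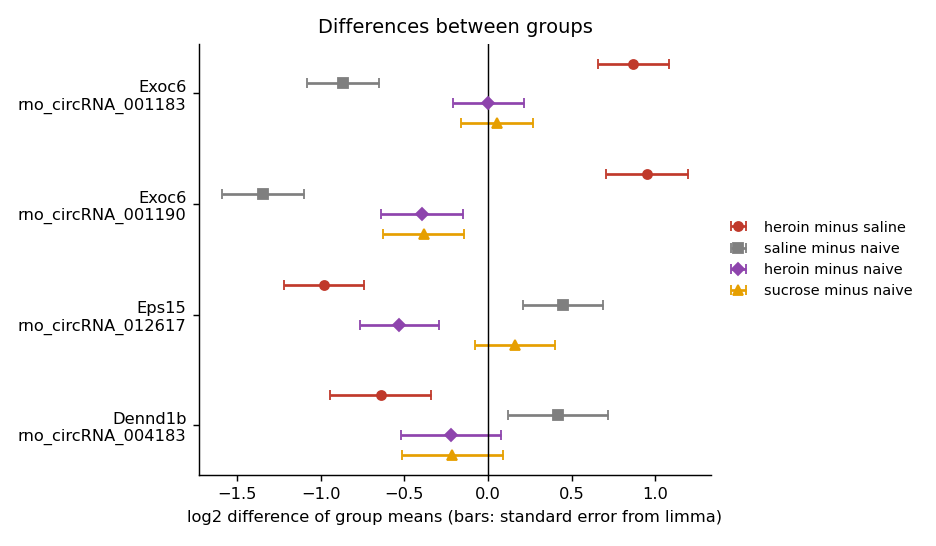
Log2 difference of group means (x axis) for each circRNA (y axis), with bars of 1 standard error from limma, for heroin minus saline, saline minus naive, heroin minus naive and sucrose minus naive. The Exoc6 circles stood at 0.87 and 0.95 for heroin minus saline and at -0.87 and -1.34 for saline minus naive, all without a slide block, and with the block rno_circRNA_001183 moved from 0.0034 to 0.48 for heroin minus naive and from 0.05 to 0.37 for sucrose minus naive. The block rests on sucrose 3, the only sucrose array on slide 2.

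The heroin effect minus the sucrose effect was 0.81 ± 0.30 for rno_circRNA_001183, 1.33 ± 0.35 for rno_circRNA_001190, -1.14 ± 0.34 for Eps15 and -0.43 ± 0.42 for Dennd1b. With slide as a block, also added after the values were seen, it was 0.50 ± 0.34, 0.95 ± 0.39, -1.70 ± 0.31 and -0.21 ± 0.53. Since this quantity holds the contrast that chose the circles, it is a description with no test. The slide block again rests on sucrose 3, the only sucrose array on slide 2.

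The pair of Exoc6 circles tracked each other closely over the 12 arrays, with r = 0.909. For rno_circRNA_001190 its partner had the highest correlation of all 13970 circRNAs compared, and for rno_circRNA_001183 it had the second highest, after the probe ASCRPR008266 at 0.934. The third was rno_circRNA_013530 from Map4k5, a kinase gene, at 0.905, and it comes from the same list. The circles share the tissue and array of each point, and the 12 arrays include the low saline arrays that placed both circles on the list.

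On the 6 sucrose and naive arrays, which the choice did not use, the Exoc6 pair gave Pearson's r = 0.50 (exact permutation p = 0.275, adjusted p = 0.55 over 6 pairs of circles) and Spearman's rho = 0.43 (exact permutation p = 0.419, adjusted p = 0.963). Without the 2 arrays farthest from the median of rno_circRNA_001183, r was 0.22. The intensity of rno_circRNA_001183 relative to rno_circRNA_001190 within an array, a log2 difference of 1.74 ± 0.29 (SD, n = 3) for heroin, 1.82 ± 0.14 for saline and 1.78 ± 0.10 for sucrose, was 1.34 ± 0.17 for naive. Every sucrose array, at 1.71 to 1.89, was above every naive array, at 1.16 to 1.48, a difference of 0.44 (exact permutation p = 0.1, the smallest possible). This test was not among those planned. All naive arrays lay on slide 2 and sucrose 1 and 2 on slide 1, so it does not separate group from slide. The size of this log2 difference depends on each probe's labelling and binding, so that at most its change between groups can be read. In the deposited log2 values it was again higher on every sucrose array than on every naive array. There the heroin and saline arrays overlapped the naive arrays.

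**Figure D3:**
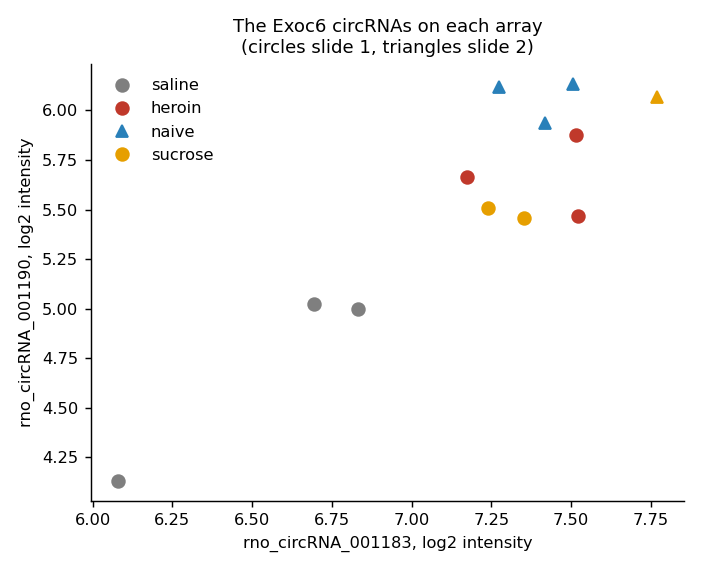
Log2 intensity of rno_circRNA_001183 (x axis) and of rno_circRNA_001190 (y axis) on each of the 12 arrays, coloured by group, with circles for slide 1 and triangles for slide 2. The 3 saline arrays sit at the low end of both axes, and the naive arrays sit high on the y axis relative to heroin arrays with like x values.

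Among the other pairs on the 6 sucrose and naive arrays, rno_circRNA_001183 and Eps15 had r = 0.93 (exact permutation p = 0.0361, adjusted p = 0.217) and rho = 0.77 (exact permutation p = 0.103, adjusted p = 0.617), with r = 0.80 without the 2 farthest arrays. None of the 6 pairs passed the adjusted threshold. Slide 2 held 4 of these arrays and slide 1 held 2, too few for values within a slide. Over all 12 arrays the same pair had r = -0.25, and rno_circRNA_001183 and Dennd1b had r = -0.62, both given as descriptions.

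The Eps15 circle's nearest patterns over the 12 arrays were the probes ASCRPR004329 (r = 0.914), ASCRPR013321 (0.884) and ASCRPR001457 (0.881). Those of Dennd1b were ASCRPR012755 (0.981), ASCRPR014018 (0.977) and ASCRPR001010 (0.953). For rno_circRNA_001190 the next after its partner were ASCRPR008202 (0.908) and ASCRPR003304 (0.908). The host genes of these probes are not named in the sources used here, and nearest means the highest Pearson's r over points that share their array.

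A list of 41 genes of exocyst, clathrin, Rab and SNARE functions was set against the supplementary list. It included 3 genes that were taken from the supplementary list itself, so finding these 3 there says nothing. None of the other 38 was a host gene there, and their circRNAs could not be looked up on the array. The 3 are Snx7, which encodes a sorting nexin of endosomes, Stx3, which encodes a syntaxin of the plasma membrane fusion machinery, and Tbc1d5, which encodes a Rab GTPase-activating protein that works with the retromer. They were chosen by the same heroin against saline contrast.

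The Snx7 circle, rno_circRNA_008848, had means of 6.50 ± 0.19 (SD, n = 3) for heroin, 5.79 ± 0.29 for saline, 6.51 ± 0.44 for sucrose and 6.39 ± 0.43 for naive. The Stx3 circle, rno_circRNA_000977, had 6.10 ± 0.16, 5.27 ± 0.44, 6.12 ± 0.05 and 5.87 ± 0.50 in the same order. Both means were lowest in the saline group, in that respect like the Exoc6 circles, with heroin minus saline differences of 0.71 ± 0.26 and 0.83 ± 0.25. Unlike for the Exoc6 circles, their saline arrays overlapped the naive arrays. The Tbc1d5 circle, rno_circRNA_016937, had 10.79 ± 0.28, 11.49 ± 0.34, 10.77 ± 0.43 and 11.21 ± 0.48, with a heroin minus saline difference of -0.69 ± 0.28.

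In sucrose against naive 0 of these 3 passed the test, and the groups overlapped for each. The differences were 0.12 ± 0.26 for Snx7 (limma adjusted p = 0.880), 0.26 ± 0.25 for Stx3 (limma adjusted p = 0.701) and -0.44 ± 0.28 for Tbc1d5 (limma adjusted p = 0.549).

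**Figure D4:**
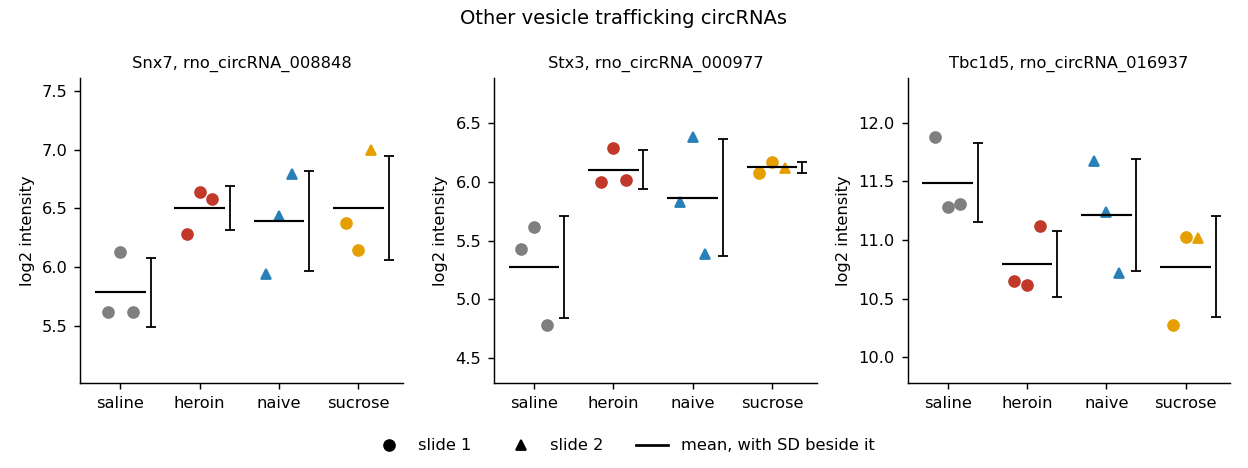
Log2 intensity (y axis) of the Snx7, Stx3 and Tbc1d5 circRNAs on the 12 arrays by group (x axis), with circles for slide 1 and triangles for slide 2, a line at the group mean and a bar of 1 SD beside it. Heroin and saline arrays did not overlap for any of the 3, against 14.7% of the 13979 circRNAs tested. Nothing is read from that, since the heroin against saline contrast chose these circRNAs. Sucrose and naive arrays overlapped for each of the 3, and 13.4% of the circRNAs tested had groups that did not.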

How the data were processed

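The 12 arrays were 1-colour Agilent scans of 3 rats per group, grouped by the sample labels. The authors enriched circRNA with RNase R, labelled with Cy3 and deposited the intensity of each spot without normalization between arrays. Their deposited log2 values of the same arrays served as an alternative, and the sources used here do not state whether background was subtracted for them.

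For the 14145 circRNA probes, background-subtracted intensities were log2-transformed, 9 outlier spots were set to missing, and quantile normalization was applied over all arrays. A probe had to be well above background on 3 or more of the 12 arrays, and the 13979 that were entered limma (version 3.58.1) in R (version 4.3.3), with 4 group means and 1 shared spread, and p-values were adjusted over all of them by Benjamini-Hochberg. The fit was tested on simulated data. Pattern correlations used the 13970 probes measured on every array. Having 3 arrays per group limits the precision of all values.

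The circRNAs, gene lists and tests were chosen with earlier results of these data known. Named circRNAs were the 4 circles, the 3 probes with the highest correlation to each, and the listed circRNAs of Snx7, Stx3 and Tbc1d5. Host genes came from the study's supplementary list, and all 3 symbols for the 4 circles matched the RefSeq gene table. Mature miRNA sequences came from RefSeq. Alternatives covered the scaling, the background correction, the filter, which arrays were fitted, use of the deposited values, the methods' t-test, the variance model, a block for the replicate number, the slide or the slide row, and leaving out single replicates. Neither qPCR nor behaviour was analysed here.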

Additional observations from a re-analysis of the deposited data

How the results depend on the processing

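The heroin minus saline differences of all 4 circles kept their direction under every alternative run, and so did those of saline minus naive. Under normexp with an offset of 50 the heroin minus saline values of rno_circRNA_001183, rno_circRNA_001190 and Eps15 were 0.57, 0.42 and -0.54, and the saline minus naive values of the Exoc6 circles were -0.58 and -0.56. With the slide row as a block, added after the values were seen, the heroin minus saline value of rno_circRNA_001183 was 0.57, in effect against saline 1 only. The saline minus naive value of rno_circRNA_001190 was -0.91 without background subtraction and -0.87 in the deposited values, and with slide as a block the values of rno_circRNA_001183, rno_circRNA_001190 and Eps15 were -0.39, -0.76 and 1.29. Slide as a block, added after the values were seen for heroin minus naive and for the heroin minus the sucrose effect, put the values of the same 3 circles at 0.48, 0.19 and 0.31, with the sign turned for the last 2, and at 0.50, 0.95 and -1.70. The causes were not tested.

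For sucrose minus naive no circle had an adjusted p below 0.05 under any alternative, by limma or the methods' t-test, with ranges of 0.762 to 0.998 for rno_circRNA_001183, 0.251 to 0.999 for rno_circRNA_001190, 0.543 to 0.977 for Eps15 and 0.245 to 0.998 for Dennd1b. The sign turned for rno_circRNA_001190 with slide as a block (0.0037), for rno_circRNA_001183 with array weights (-0.0097), without naive replicate 1 (-0.0088) and without sucrose replicate 3 (-0.10), and for Eps15 without sucrose replicate 3 (-0.12). The number of all circRNAs below an adjusted p of 0.05 was 2 under normexp, 1 without background subtraction, 3 in the deposited values, 1 with an intensity trend and 11 without sucrose replicate 3, against 0. That below an unadjusted p of 0.05 was 981 by the methods' t-test, 1003 without sucrose replicate 1, 2602 without sucrose replicate 3 and 874 without naive replicate 1, against 1558.

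Leaving out each replicate in turn gave heroin minus saline ranges of 0.64 to 1.02 and 0.66 to 1.1 for the Exoc6 circles, -1.12 to -0.85 for Eps15 and -0.76 to -0.56 for Dennd1b. Those of saline minus naive were -1.01 to -0.64, -1.5 to -1.05, 0.32 to 0.55 and 0.02 to 0.62, and those of sucrose minus naive -0.10 to 0.16, -0.58 to -0.28, -0.12 to 0.32 and -0.61 to -0.01. The correlation of the Exoc6 pair on the sucrose and naive arrays ran from 0.31 to 0.77. The labels do not say whether the replicate numbers pair the rats. Same-numbered arrays did not deviate together (r from -0.198 to -0.043), though this check cannot exclude a pairing. With the replicate number as a block the sucrose minus naive values were unchanged (0.05, -0.38, 0.16 and -0.21, limma adjusted p = 0.949, 0.629, 0.832 and 0.829). Heroin minus naive and the difference of the effects were recomputed with slide as a block only, and the Snx7, Stx3 and Tbc1d5 circles were not recomputed.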
